A study of Drosophila melanogaster with 12 samples.

Results

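The ecdysone receptor genes EcR and usp and 7 genes that act at early or later steps of the ecdysone cascade (Eip74EF, Eip75B, Eip78C, Eip93F, br, Hr46 and ftz-f1) were examined in Drosophila S2 cells exposed to insulin. The 9 genes, and the gene lists used below, were chosen by name with earlier results of these data known. The members make up 9 of the 10287 genes in the RNA-seq count table. All merged ATAC-seq peaks that the authors annotated to these genes were included, 60 of 10269 peaks. S2 cells are a macrophage-like line established from late embryos, labelled as male and Oregon-R. After serum withdrawal, they were exposed for 4 h to insulin (10 µM in the study's methods, written as 10 M in the sample labels) or to vehicle (25 mM HEPES, pH 8.2). RNA-seq and ATAC-seq were each performed on 3 insulin and 3 vehicle samples, with 60000 sorted DAPI-negative cells per ATAC-seq sample. The study's paper calls the ATAC-seq samples biological replicates without saying whether they, or the RNA-seq samples, came from separate cultures. If they did not, p-values measure only the spread between these samples, which may be technical.

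Ecdysone is the steroid hormone that times molting and metamorphosis in insects. Its receptor is a heterodimer of the nuclear receptors EcR and usp (ultraspiracle, the fly ortholog of the retinoid X receptors), which binds DNA with or without hormone. The liganded receptor induces a small set of early genes, most of which encode transcription factors, and these act on later genes. S2 cells and the related Kc cells respond to added ecdysone, but no ecdysone was added in these experiments according to the sources used here. The comparison therefore asks how the RNA levels and the accessible regions of these genes stood after insulin exposure alone.

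The RNA-seq libraries held 7132065 to 9850342 counts for insulin (libraries X4 to X6 of the count table) and 8125856 to 10256535 counts for vehicle (X1 to X3). Libraries of the same treatment differed by a chi-square of 2.26 to 6.87 per degree of freedom over genes, and libraries of different treatments by 21.8 to 28. No library pair agreed to within sampling noise. Of 14 plasmatocyte (fly macrophage) markers, 11 had counts and were tested. Among them, Hml was at 19.9 CPM after insulin and 28.9 CPM after vehicle, and crq was at 171 CPM after insulin and 262 CPM after vehicle. The markers NimC1, He and Sr-CI had no entry in the count table. Of the 11, 9 were lower after insulin, against 23.1% of all tested genes, and 1 (Pvr) was higher. The summed level of the plasmatocyte markers was 2950 to 3070 CPM in insulin libraries and 3150 to 3170 CPM in vehicle libraries. A large part of this sum was Pvr, at 1420 CPM after insulin and 1230 CPM after vehicle, so the sum understates the fall of the other markers. CPM are counts relative to the library size after TMM scaling, and genes were called at a false discovery rate (FDR) below 0.05 in edgeR's quasi-likelihood test over 8683 genes. In bulk samples, fewer cells of a type and less RNA per cell cannot be told apart.

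After insulin exposure, 6 of the 8 tested genes were lower (EcR, usp, Eip74EF, Eip75B, Eip93F and ftz-f1) and 1 was higher (br). Eip78C did not pass the test, and Hr46 had too few counts to be tested. The background was high in this experiment, since 50.0% of all tested genes were called, 23.1% lower and 27.0% higher. The changes were small. The 6 lower genes fell by 11.8% to 37.8%, and br was 18.2% higher. The median log2 fold change (insulin over vehicle) of the 8 genes was -0.28, beside -0.01 for all 8683 tested genes, -0.31 for all genes called lower and 0.35 for all genes called higher. The libraries of both treatments did not overlap for the same 7 genes, beside 26.8% of all tested genes that did not overlap and were lower and 28.8% that were higher. Most plasmatocyte markers were also lower in the same libraries, as given above, and their part in these results was not tested.

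**Figure D1:**
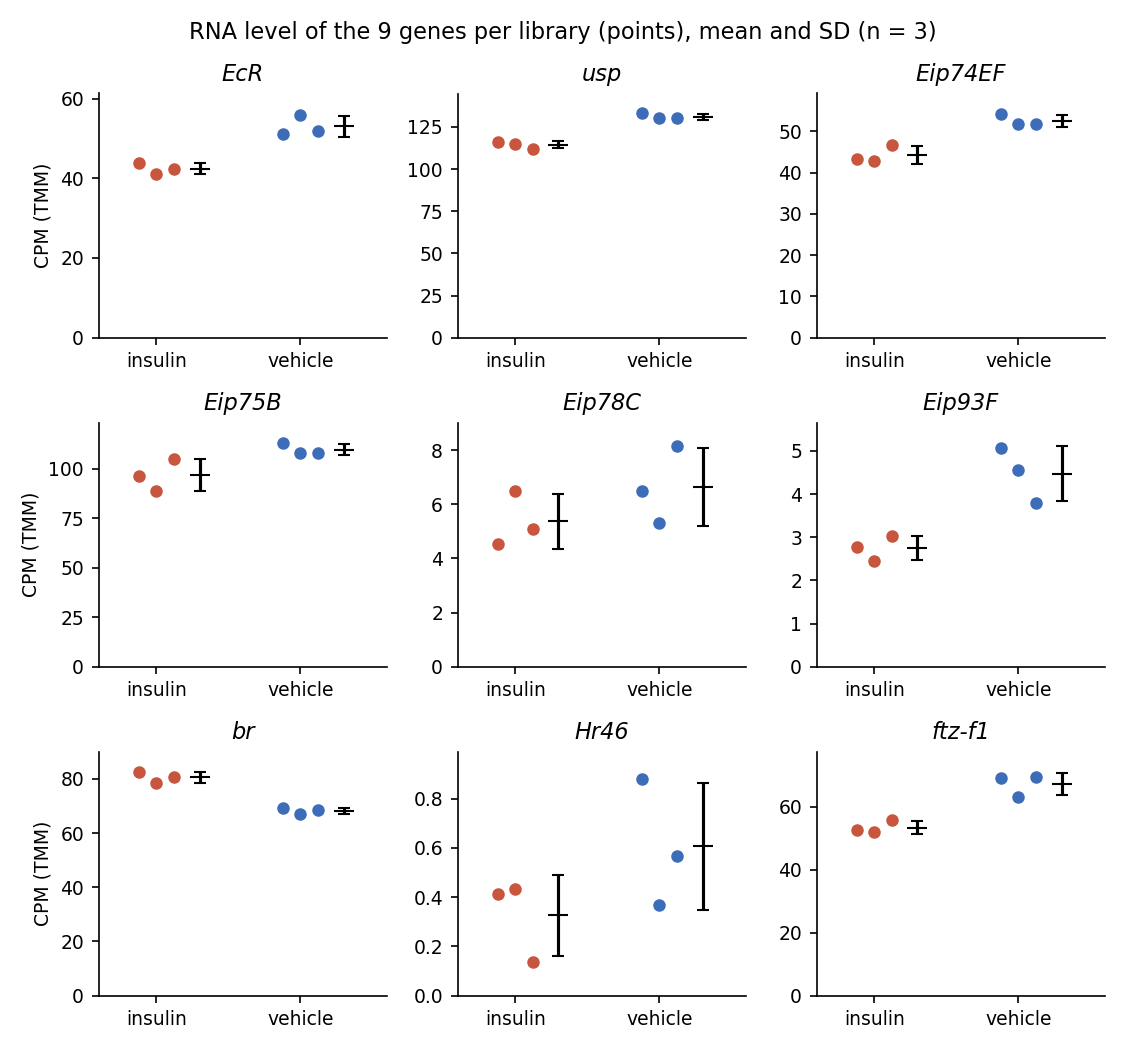
RNA level of each of the 9 genes in CPM, with points for the 3 insulin and 3 vehicle libraries and the mean with its SD beside them; each axis starts at 0. The insulin points lie below all vehicle points for EcR, usp, Eip74EF, Eip75B, Eip93F and ftz-f1, above them for br, and overlap them for Eip78C and Hr46.

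The 2 receptor genes were both lower after insulin. EcR (FBgn0000546, chr2R:6087873-6169087, minus strand), which encodes the ecdysone-binding partner, had 43.8, 41.0 and 42.3 CPM in insulin libraries, against 51.2, 56.0 and 52.0 CPM in vehicle libraries. Each insulin library was thus below each vehicle library, and the mean was 42.4 ± 1.39 CPM after insulin and 53.1 ± 2.58 CPM after vehicle (SD, n = 3 each). The log2 fold change was -0.32 (SE 0.063, edgeR FDR 4.39e-05). The partner gene usp (FBgn0003964, chrX:2038798-2042311, minus strand) had 116, 115 and 112 CPM after insulin, against 133, 130 and 130 CPM after vehicle. Its libraries were the tightest of the 9 genes relative to the mean in vehicle, with 114 ± 2.25 CPM after insulin and 131 ± 1.65 CPM after vehicle (SD, n = 3 each). The log2 fold change of usp was -0.20 (SE 0.042, edgeR FDR 0.000111). The exons of usp share 265 bp with those of the neighboring gene Actn on the same strand, so reads in that stretch cannot be given to 1 gene.

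Among the early genes, Eip74EF and Eip75B were lower, whereas br, described below, was higher. Eip74EF (FBgn0000567, chr3L:17558672-17619325, minus strand) encodes transcription factors with an ETS DNA-binding domain. Its level was 43.2, 42.8 and 46.8 CPM in insulin libraries, against 54.2, 51.7 and 51.8 CPM in vehicle libraries, so that the highest insulin library stayed below the lowest vehicle library. The log2 fold change was -0.25 (SE 0.063, edgeR FDR 0.000872). Eip75B (FBgn0000568, chr3L:17950953-18064696, minus strand) encodes nuclear receptors that bind heme and can repress other receptors of the cascade. It had 96.2, 88.9 and 105 CPM in insulin libraries, against 113, 108 and 108 CPM in vehicle libraries. The gap between the groups was narrow, because 1 insulin library (X6, 105 CPM) came close to the vehicle libraries. The log2 fold change was -0.18 (SE 0.048, edgeR FDR 0.00162).

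The early gene br (broad, FBgn0000210, chrX:1575132-1664869, plus strand) encodes zinc finger proteins with a BTB domain that specify pupal development. It went the other way from the 6 lower genes, with 82.6, 78.6 and 80.8 CPM in insulin libraries, against 69.3, 67.0 and 68.5 CPM in vehicle libraries. The mean was 80.7 ± 2.00 CPM after insulin and 68.3 ± 1.20 CPM after vehicle (SD, n = 3 each). The log2 fold change was 0.24 (SE 0.049, edgeR FDR 6.53e-05). The difference from EcR can be read within each library, without any scaling between libraries. The ratio of br counts to EcR counts was 1.88, 1.92 and 1.91 in insulin libraries, against 1.35, 1.20 and 1.32 in vehicle libraries. By contrast, the ratio of ftz-f1 to EcR counts was 1.20, 1.26 and 1.32 in insulin libraries and 1.35, 1.13 and 1.33 in vehicle libraries, which overlapped. The ratio of EcR to usp counts was 0.379, 0.355 and 0.378 after insulin, against 0.385, 0.432 and 0.399 after vehicle, a small gap with no overlap. These ratios were chosen after the values were seen and were not tested.

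The competence factor ftz-f1 (FBgn0001078, chr3L:18750607-18801309, minus strand), an orphan nuclear receptor that is expressed between ecdysone pulses in the animal and prepares the response to the next one, had the smallest FDR of the 9 genes. It had 52.5, 51.9 and 55.7 CPM in insulin libraries, against 69.2, 63.0 and 69.3 CPM in vehicle libraries. The mean was 53.4 ± 2.04 CPM after insulin and 67.2 ± 3.59 CPM after vehicle (SD, n = 3 each), a log2 fold change of -0.34 (SE 0.057, edgeR FDR 3.39e-06). Its annotated exons share 2521 bp with a noncoding gene, CR45939, on the same strand, which had 4 to 6 counts per insulin library and 4 to 18 per vehicle library. The 3 genes whose log2 CPM followed ftz-f1 most closely over the 6 libraries were HLH106, the fly SREBP (Pearson r = 0.9996, log2 fold change -0.20), Golgin245, a Golgi coiled-coil protein (r = 0.9972, log2 fold change -0.12), and crol (r = 0.9963, log2 fold change -0.17), a zinc finger gene that is itself ecdysone-regulated. These values are a description over 6 libraries that fall into 2 treatments, and 334 genes had an r above 0.95.

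The late-acting gene Eip93F (FBgn0264490, chr3R:21949114-22014539, plus strand), which encodes the adult specifier and cell death regulator E93, showed the largest relative fall among the called members at a low level. It had 2.78, 2.46 and 3.02 CPM in insulin libraries, against 5.06, 4.56 and 3.80 CPM in vehicle libraries. These values rest on 27, 17 and 22 counts after insulin and 46, 37 and 40 counts after vehicle. The log2 fold change was -0.69 (SE 0.22, edgeR FDR 0.00934). The call was lost with DESeq2, where the adjusted p was 0.067, and without vehicle library X1, where the edgeR FDR was 0.05 and no longer below the threshold, while the direction stayed the same. The summed counts gave 2.76 CPM after insulin (95% exact Poisson interval 2.13 to 3.51) and 4.44 CPM after vehicle (3.69 to 5.29), intervals that cover counting error only.

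Eip78C (FBgn0004865, chr3L:21226609-21266503, plus strand), a nuclear receptor related to Eip75B, had 4.53, 6.50 and 5.08 CPM in insulin libraries, against 6.49, 5.30 and 8.16 CPM in vehicle libraries. The groups overlapped, and the log2 fold change was -0.36 (SE 0.18, edgeR FDR 0.0987). It rested on 37 to 45 counts per insulin library and 43 to 86 per vehicle library. Single libraries moved the value in both directions. Without vehicle library X3 the log2 fold change was -0.17 (edgeR FDR 0.528) and without insulin library X4 it was -0.22 (edgeR FDR 0.408). Without vehicle library X2 it was -0.49 (edgeR FDR 0.0246) and without insulin library X5 it was -0.50 (edgeR FDR 0.0431), both past the threshold. Hr46 (FBgn0000448, chr2R:10203995-10237348, minus strand), the receptor Hr3 that induces ftz-f1 in the animal, had 4, 3 and 1 counts in insulin libraries, against 8, 3 and 6 counts in vehicle libraries. The summed 8 and 17 counts correspond to 0.334 CPM after insulin (95% exact Poisson interval 0.144 to 0.659) and 0.613 CPM after vehicle (0.357 to 0.982). A difference for Hr46 was not detectable at this depth. Its exons share 6466 bp with CG12912 and 6071 bp with CG46321 on the same strand in the reference annotation, where reads cannot be given to 1 gene. Its level per length, given below, divides by all 10465 bp of its exons, including these stretches, and may therefore be too low.

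**Figure D2:**
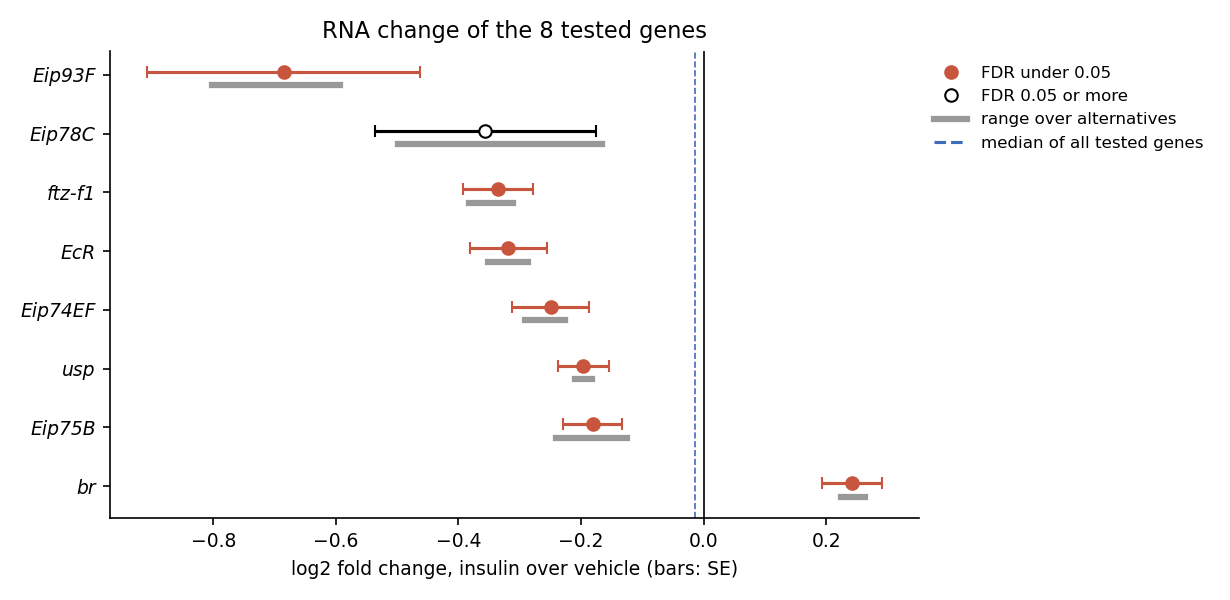
Log2 fold change of the 8 tested genes (points, with SE bars), the range over the alternative settings (gray bars) and the median of all tested genes (dashed line). The points of 7 genes lie left of 0 and that of br lies right of 0 under all settings run; Eip78C (open point) did not pass the test.

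To compare levels between genes, CPM were divided by the length of the merged exons of each gene in kb. Merged exons can be much longer than 1 transcript. For br they span 20201 bp, against a median transcript of 4270 bp, and for usp 3038 bp against 2776 bp. The order of the genes therefore depends on the length used, and levels per transcript length were not computed. On this per-length scale usp was the most abundant of the 9, at 37.6 ± 0.733 RPKM after insulin and 43.1 ± 0.548 RPKM after vehicle (SD, n = 3 each). It stood at the 80.6th percentile of all genes with a length in vehicle libraries, whereas the other 8 were below the median level of 14.4 RPKM. Eip75B (7.18 ± 0.593 RPKM after insulin and 8.15 ± 0.208 RPKM after vehicle) and ftz-f1 (6.22 ± 0.238 RPKM and 7.83 ± 0.419 RPKM in the same order) came next, and their ranges overlapped in vehicle libraries but not in insulin libraries. They were followed by Eip74EF (4.74 ± 0.236 RPKM after insulin, 5.63 ± 0.149 RPKM after vehicle) and EcR (4.26 ± 0.14 RPKM after insulin, 5.34 ± 0.26 RPKM after vehicle). The ranges of these 2 genes overlapped in vehicle libraries only. The gene br stood at 3.99 ± 0.0987 RPKM after insulin and 3.38 ± 0.0593 RPKM after vehicle. The lowest levels were those of Eip78C (0.913 ± 0.174 RPKM after insulin, 1.13 ± 0.244 RPKM after vehicle), Eip93F (0.217 ± 0.0222 RPKM after insulin, 0.353 ± 0.0503 RPKM after vehicle) and Hr46 (0.0313 ± 0.0158 RPKM after insulin, 0.058 ± 0.0246 RPKM after vehicle). Thus EcR RNA was well below that of its partner usp per length of merged exons in every library. The order of the 9 genes on this scale was the same in both treatments.

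Genes listed for ecdysone synthesis, uptake or breakdown, including sterol transport genes, were next compared. Of the 13 listed genes, 7 were tested, 3 were lower after insulin and 4 did not pass the test, beside 23.1% lower among all tested genes. The median log2 fold change was -0.29, beside -0.01 for all tested genes. The breakdown gene Cyp18a1 and the synthesis genes nvd, spok, phm and dib had no entry in the count table, so this median covers no breakdown gene. The ecdysone importer Oatp74D was at 53.3 ± 0.921 CPM after insulin and 64.8 ± 1.44 CPM after vehicle (SD, n = 3 each; log2 fold change -0.29, SE 0.056, edgeR FDR 3.07e-05). The sterol transporter Npc1a was at 141 ± 2.77 CPM after insulin and 173 ± 4.62 CPM after vehicle (log2 fold change -0.29, edgeR FDR 4.44e-08), and Start1, a putative cholesterol carrier, was at 39.6 ± 1.74 CPM after insulin and 47.7 ± 1.20 CPM after vehicle (log2 fold change -0.27, edgeR FDR 0.000635). These 3 genes concern uptake and sterol transport. The steroidogenic enzyme genes that were tested, spo, Cyp6t3, shd and sro, had mean levels of 1.16 to 2.60 CPM after insulin and 1.51 to 3.79 CPM after vehicle, and did not pass the test.

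Coregulators and partners of the receptor included genes called in both directions. Of 16 genes, 15 were tested, 4 were higher, 4 were lower, and the median log2 fold change was -0.01. Over all tested genes, 27.0% were called higher and 23.1% lower, so these counts lay near the background. The chaperone gene Hsp83 (Hsp90), which supports assembly of the receptor dimer, was at 5140 ± 31.3 CPM after insulin and 3410 ± 35.2 CPM after vehicle (log2 fold change 0.59, SE 0.026). The corepressor gene Smr, which binds unliganded EcR, was higher (log2 fold change 0.17, edgeR FDR 4.46e-05). The coactivator gene tai was lower (log2 fold change -0.17, edgeR FDR 4.40e-05), as was the Mediator gene kto (log2 fold change -0.25, edgeR FDR 2.23e-05). Of 15 other nuclear receptor genes, 7 were tested, 1 was higher (Hr96, a xenobiotic receptor, log2 fold change 0.25, edgeR FDR 0.00617), 1 was lower (Hnf4, a regulator of fat use, log2 fold change -0.27, edgeR FDR 4.40e-07), and the median was -0.08.

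Other genes known as ecdysone-regulated moved in both directions. Of 35, 20 were tested, 9 were higher and 6 were lower after insulin, with a median log2 fold change of 0.03. The shares of all tested genes, for this list and the next, were 27.0% higher and 23.1% lower. Eip55E, which encodes a cystathionine gamma-lyase, was at 98.8 ± 2.19 CPM after insulin and 67.1 ± 0.731 CPM after vehicle (SD, n = 3 each; log2 fold change 0.56, edgeR FDR 1.62e-13). ImpL2, a secreted binding protein of insulin-like peptides, was at 232 ± 13.6 CPM after insulin and 166 ± 5.99 CPM after vehicle (log2 fold change 0.49, edgeR FDR 1.88e-13). The small heat shock genes Hsp27 (log2 fold change 0.27, edgeR FDR 9.62e-07) and Hsp23 (log2 fold change -0.17, edgeR FDR 2.03e-06), which lie in 1 cluster and are both ecdysone-inducible in cultured fly cells, went opposite ways. Of 10 juvenile hormone response and temporal factor genes, 8 were tested, 1 was higher and 4 were lower, with a median of -0.15. The juvenile hormone receptor genes gce (log2 fold change -0.16, edgeR FDR 0.00499) and Met (log2 fold change -0.15, edgeR FDR 0.0471) and chinmo, a BTB zinc finger temporal factor (log2 fold change -0.24, edgeR FDR 1.07e-06) were lower, and Syp, an RNA-binding temporal factor, was higher (log2 fold change 0.25, edgeR FDR 8.14e-07).

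In the chromatin data, the 9 genes carried 60 merged peaks. The number per gene was 15 for Eip75B, 13 for Eip74EF, 6 each for EcR, Eip93F, br and ftz-f1, 4 for Hr46, 3 for Eip78C and 1 for usp. Among the 4907 genes of the count table with a peak the median was 1, and only 25 genes had at least 13. Introns held 23 of the 60 peaks (38.3%), against 12.3% of all merged peaks, whereas 22 (36.7%) lay within 1 kb of a start, against 59.1% of all. The remaining peaks lay 1 to 3 kb from a start (11), in exons (2) or in intergenic DNA (2). Most of these genes have long introns and several starts, and counts by gene body instead of nearest start gave 91 peaks in all, including 26 for Eip75B and 14 for EcR. The median of the authors' mean signal (read count divided by size factors, averaged over the 6 ATAC-seq libraries) was 233.2 for these peaks, beside 242.9 for all merged peaks. This mean pools both treatments and has no spread.

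**Figure D3:**
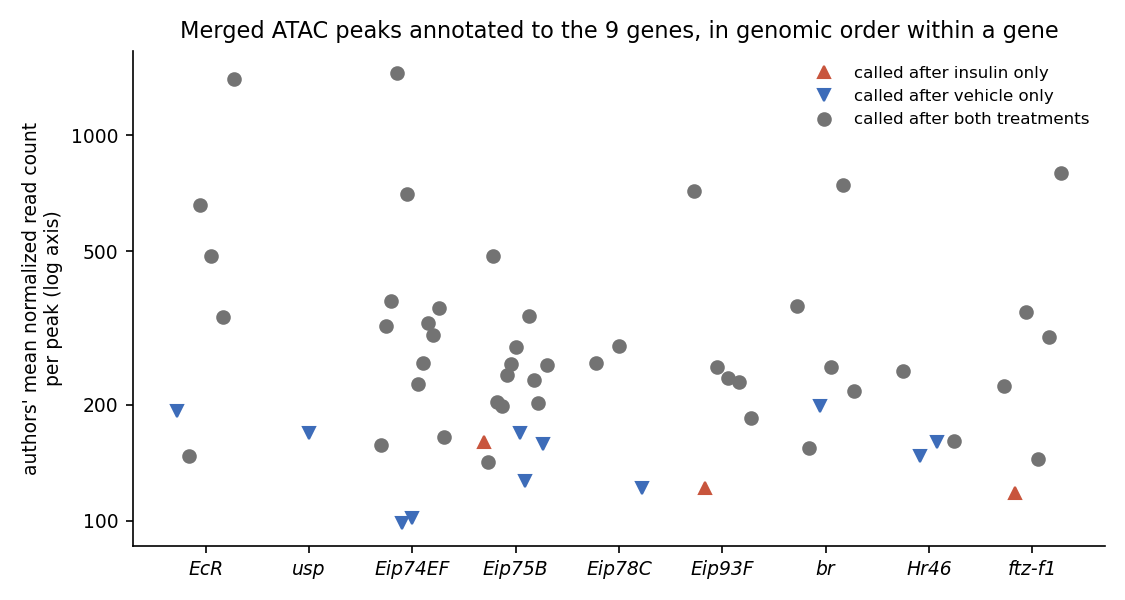
Authors' mean normalized read count (log axis) of each of the 60 merged peaks, by gene and in genomic order within a gene; symbols give the peak list or lists that hold the peak. All peaks called after 1 treatment only lie below 200, and the highest peaks of Eip74EF and EcR reach 1448.9 and 1401.4.

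The strongest peaks were found upstream of internal starts of Eip74EF and EcR. Eip74EF peak 4 (peaks numbered by position; chr3L:17577351-17580540, dm6) had a mean signal of 1448.9, at -725 bp from the nearest annotated start, and stood at the 95.4th percentile of all merged peaks. EcR peak 6 (chr2R:6132671-6135350) had 1401.4, at -749 bp from its start. Both regions are wide, and per kb the highest of the 60 was Eip74EF peak 6 (chr3L:17590241-17591220), an intron peak at 716.4 per kb and the 98.4th percentile. The highest peaks of the other genes were ftz-f1 peak 6 at a start (chr3L:18800021-18801680, 799.5), br peak 5 at -52 bp from a start (chrX:1620501-1622680, 744.0), and Eip93F peak 1 at -6994 bp (chr3R:21940601-21942120, 717.1). Eip75B peak 3 in its 3' part (chr3L:17957551-17959040) had 484.8, Eip78C peak 2 at a start (chr3L:21239881-21240500) had 283.8, and Hr46 peak 1 at a start in the authors' annotation (chr2R:10210911-10211550) had 244.0. The sole peak annotated to usp, 1082 bp inside the gene (chrX:2039601-2040230), had 168.4. Both usp starts instead lay in a stronger peak (chrX:2040721-2042440, 548.1) that the authors annotated to the neighbor Actn.

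Of 36 annotated transcript starts of the 9 genes (Ensembl release of the reference), 18 (50%) had a merged peak within 250 bp, against 33.5% of 30000 starts of all genes. The 30000 starts include genes absent from the count table, whereas all 9 members are in it, and nearby starts of a gene can share 1 peak. For EcR, the starts at chr2R:6131841 and chr2R:6131922 lay in peak 5 (chr2R:6131791-6132410, 338.1), whereas the farther upstream starts at 6157129 and 6169087 had no peak nearby. All 3 starts of Eip74EF had a peak, with 371.7 for peak 3 at the internal starts and 164.6 for peak 13 at the distal start. For Eip75B, 3 of 7 starts had a peak: peak 4 (202.7), peak 7 (255.0) and peak 11 (340.4). The 4 starts from 18026032 to 18064696 had none within 250 bp. Farther off, peak 14 (158.4) lay at -328 bp from the start at 18061453, and peak 15 (252.9) lay 1016 bp inside from the start at 18064696. The start of br that serves 8 transcripts (chrX:1612341) had no peak within 250 bp, and the peaks stood at the starts at 1610512 (154.6), 1622308 and 1622732 (744.0). Eip93F had a peak at its first start (peak 3, 250.3), Eip78C at 1 of 3 starts (283.8), Hr46 at 1 of 3 (peak 4, 161.1), and ftz-f1 at 2 of 3, with 223.3 for peak 1 and 799.5 for peak 6.

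Peak calling by the authors pooled the 3 samples within a treatment, so the presence of a peak in the list of a treatment has no replicate spread and was not tested. Of the 60 peaks, 46 (76.7%) overlapped peaks in both lists, 3 (5%) were called after insulin only and 11 (18.3%) after vehicle only. Over all merged peaks these shares were 78.8%, 8.78% and 12.4%. The 3 insulin-only peaks lay in an exon of Eip75B (peak 1, chr3L:17955361-17955880, mean signal 159.9), in intergenic DNA upstream of Eip93F (peak 2, chr3R:21942951-21943310, 121.6) and in an intron of ftz-f1 (peak 2, chr3L:18768961-18769290, 117.8). The vehicle-only peaks belonged to EcR (peak 1, 192.5), usp (peak 1, 168.4), Eip74EF (peaks 5 and 7, 98.5 and 101.4), Eip75B (peaks 9, 10 and 14, 168.6, 126.7 and 158.4), Eip78C (peak 3, 121.3), br (peak 3, 198.9) and Hr46 (peaks 2 and 3, 147.5 and 160.1). All 14 had a mean signal below the median of the 60 peaks, and their scores stood at or below the 50.4th percentile of their list.

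For the 46 peaks in both lists, the rank of the peak score within each list was compared. The percentile was higher in the insulin list for 15 (32.6%) and higher in the vehicle list for 31 (67.4%), against 45.4% and 53.1% of all 8092 shared peaks. By gene, all 5 shared peaks of br and all 5 of ftz-f1 ranked lower in the insulin list, as did 9 of 11 for Eip74EF and 4 of 5 for EcR. For br this stood beside a higher RNA level after insulin, and for the other 3 genes beside a lower one. Eip93F went the other way, with 4 of 5 peaks ranking higher in the insulin list, beside a lower RNA level. Its score itself was lower in the insulin list for 3 of these 5, beside 71.8% of all shared peaks. Hr46, whose RNA was not tested, had 2 of 2 peaks ranking higher in the insulin list, and Eip78C had 1 each way. Eip75B was divided, with 5 higher and 6 lower. The median percentile over the 46 peaks was 72.7 in the insulin list and 76.2 in the vehicle list, beside 55.5 and 57.1 over all shared peaks. These are ranks in pooled lists and were not tested.

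**Figure D4:**
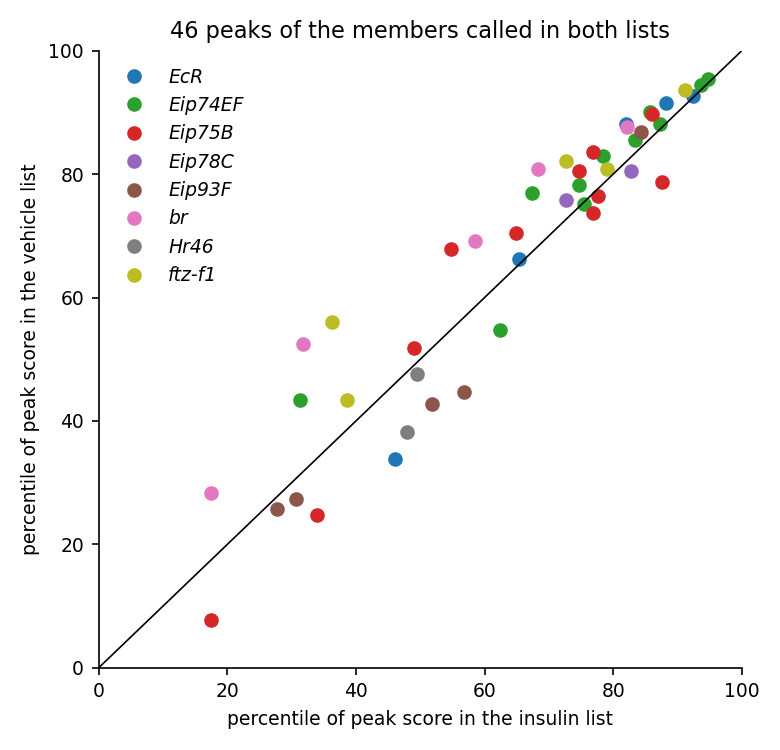
Percentile of the peak score within the insulin list (x axis) and within the vehicle list (y axis) for the 46 peaks called in both, colored by gene; the line marks equal percentiles. Of these points, 31 lie above the line, including all 5 of br and all 5 of ftz-f1, and 4 of 5 points of Eip93F lie below it.

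Sequence matches were counted in windows of 300 bp at the peak centers, on both strands of the dm6 reference. Nuclear receptors bind the core site AGGTCA, which was present in 10 of 60 peaks (16.7%), against 6.67% of all merged peaks. In whole peaks the shares were 23.3% and 22.0%, close to equal. The extended core site CAAGGTCA, which contains the core site and is bound by ftz-f1-type receptors that act as monomers, was found in 3 peaks (5.0%, against 0.876% of all), and all 3 belonged to Eip75B. Outside the central windows it was also found in EcR peak 3, Eip74EF peak 11 and br peak 5. The GAGA element GAGAGAG was found in 21 peaks (35.0%, against 10.2%), in 69 matches that often overlap. The forkhead site GTAAACA, bound by the insulin-regulated factor FOXO among others, was found in 2 peaks (3.3%, against 7.52%), and in whole peaks the shares were 18.3% and 21.6%. The E-box CACGTG was found in 3 peaks (5.0%, against 3.96%), and in whole peaks the order turned round, with 8.3% of the 60 peaks against 12.8% of all. For the GAGA element and the extended core site the order was the same in whole peaks (48.3% against 22.5%, and 10.0% against 3.4%). In 300 bp windows around the 36 starts, 0 held the core site (5.98% of all starts did) and 7 held the GAGA element (19.4%, against 6.4%). A match is a description of the letters only, and these motifs are not independent of base composition or peak class, which were not matched. The gene for the GAGA factor, Trl, was chosen after its values were seen and had 24.0 ± 1.55 CPM after insulin and 24.6 ± 1.01 CPM after vehicle (SD, n = 3 each).

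**Figure D5:**
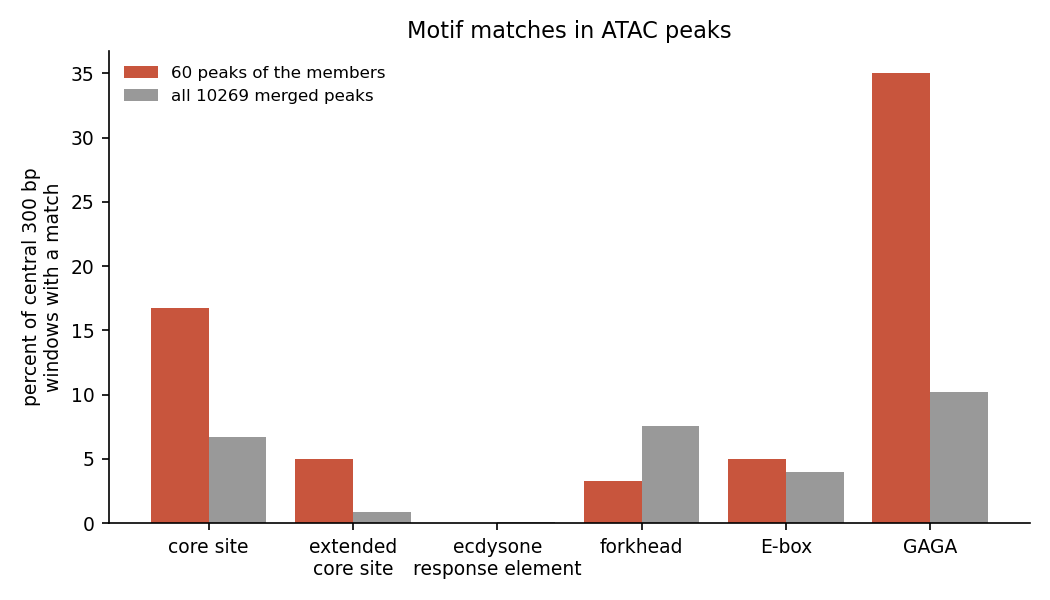
Percent of central 300 bp windows with at least 1 match to each motif, for the 60 peaks of the 9 genes and for all 10269 merged peaks. The GAGA element (35.0% against 10.2%) and the core site (16.7% against 6.67%) show the widest gaps; the ecdysone response element has 0 matches in the 60 windows.

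The 3 Eip75B peaks with an extended core site are shown because they share this match at different places of the gene, with the matching letters in capitals (CAAGGTCA, or its reverse complement on the other strand). Peak 3 (mean signal 484.8, 2774 bp inside the gene from a start) and peak 12 (231.2) were called after both treatments, and peak 9 (168.6) after vehicle only.
Eip75B peak 3, chr3L:17958146-17958445, plus strand: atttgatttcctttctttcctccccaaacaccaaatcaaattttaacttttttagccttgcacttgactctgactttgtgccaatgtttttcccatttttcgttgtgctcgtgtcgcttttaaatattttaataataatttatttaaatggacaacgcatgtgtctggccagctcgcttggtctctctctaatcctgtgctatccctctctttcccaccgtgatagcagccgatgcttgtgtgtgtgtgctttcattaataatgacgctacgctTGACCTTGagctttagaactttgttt
Eip75B peak 9, chr3L:17994471-17994770, plus strand: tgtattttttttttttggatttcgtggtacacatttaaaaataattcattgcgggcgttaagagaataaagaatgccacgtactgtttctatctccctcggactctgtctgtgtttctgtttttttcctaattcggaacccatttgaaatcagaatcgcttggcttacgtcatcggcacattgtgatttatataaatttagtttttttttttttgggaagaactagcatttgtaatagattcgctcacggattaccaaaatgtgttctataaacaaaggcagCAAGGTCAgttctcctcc
Eip75B peak 12, chr3L:18016516-18016815, plus strand: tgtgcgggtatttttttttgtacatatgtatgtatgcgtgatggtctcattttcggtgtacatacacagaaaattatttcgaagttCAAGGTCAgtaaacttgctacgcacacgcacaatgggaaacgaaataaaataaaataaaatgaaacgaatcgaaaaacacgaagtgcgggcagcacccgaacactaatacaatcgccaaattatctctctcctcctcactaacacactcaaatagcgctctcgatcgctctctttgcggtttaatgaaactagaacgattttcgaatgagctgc
The RNA of ftz-f1 and of Eip75B was lower after insulin, as given above.

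The intron peak of Eip74EF with the highest signal per kb is shown for its GAGA element, which was read on the minus strand as 6 overlapping matches and stands in capitals. It was called after both treatments, with a score at the 94.8th percentile of the insulin list and the 95.4th percentile of the vehicle list.
Eip74EF peak 6, chr3L:17590581-17590880, plus strand: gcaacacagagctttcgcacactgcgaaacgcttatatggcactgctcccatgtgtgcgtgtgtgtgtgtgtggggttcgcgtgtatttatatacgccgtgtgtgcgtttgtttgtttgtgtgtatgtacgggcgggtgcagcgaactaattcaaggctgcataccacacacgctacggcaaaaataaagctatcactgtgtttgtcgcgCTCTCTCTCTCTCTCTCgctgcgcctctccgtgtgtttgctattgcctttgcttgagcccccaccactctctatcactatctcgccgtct

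The full ecdysone response element, an inverted repeat of core sites with 1 base between them, was searched by its consensus. No central window held it (0 of 60, against 0.0584% of all), and in whole peaks it was found once, in Eip93F peak 1 (1.7% of 60 peaks, against 0.204% of all). This intergenic peak lies at -6994 bp from the first start of Eip93F and had the highest signal of its 6 peaks (717.1), with a score at the 84.4th percentile of the insulin list and the 86.8th percentile of the vehicle list. The match begins 21941199 and ends 21941211 on chromosome 3R and is shown in capitals with 40 bases on each side.
Eip93F peak 1, chr3R:21941159-21941251, plus strand: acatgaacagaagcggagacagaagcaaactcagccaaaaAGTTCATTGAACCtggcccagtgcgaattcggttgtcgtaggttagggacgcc
The RNA of Eip93F was low in all libraries, at most 3.02 CPM after insulin and 5.06 CPM after vehicle.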

How the data were processed

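The authors aligned ATAC-seq reads to dm6 with Novoalign and SAMtools, called peaks per treatment on 3 pooled samples, merged both lists and annotated the merged peaks with ChIPseeker. The deposited peak lists give a score per peak, used only for ranks. The deposited signal is the authors' mean of size-factor-normalized read counts over the 6 libraries. The authors' deposited coordinates and widths (other values, in bp) were used as given. The authors counted RNA-seq reads per gene by strand with STAR and featureCounts, and the deposited raw counts were used. Their tool versions were not given in the sources used here. The authors' fold changes, standard errors, p-values and pathway results and their normalized and regularized log values were not used, nor were ATAC-seq counts per sample, so accessibility was not tested between treatments.

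Counts of 10287 genes were filtered with filterByExpr (8683 kept), scaled by TMM and tested by the quasi-likelihood method of edgeR 4.0.16 with limma 3.58.1 in R 4.3.3 (Benjamini-Hochberg FDR below 0.05 over all genes tested). The fit was tested on simulated data. The biological coefficient of variation was 4.4%. SEs were derived from the log2 fold change and the F statistic. DESeq2 1.42.0 was an alternative. Count columns were given treatments by the deposited sample sheet. RPKM used merged exon lengths, which 99% of genes had. Merged peaks counted as called where they overlapped a list peak by at least 1 bp. Motifs were searched with Python 3.11.15 (numpy 2.4.6, pandas 2.3.3), and figures used matplotlib 3.10.9. Sequences come from the RefSeq Release 6 genome.

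All 9 members are named. Up to 4 genes called per list with the smallest FDR are named, with the 3 genes most like the member of smallest FDR. For peaks, the highest of each member, those at starts and those in 1 list are named. The members and the 8 gene lists were chosen with earlier results of these data known. Alternatives were RLE scaling, DESeq2, 2 other count filters, leaving out each library, other peak assignments and overlaps, and whole peaks for motifs.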

Additional observations from a re-analysis of the deposited data

How the results depend on the processing

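All 79 log2 fold changes of the 8 tested members under the alternatives run kept the sign of the reported values, and 75 kept their side of the threshold. Exceptions were Eip93F, which missed it with DESeq2 (log2 fold change -0.70, adjusted p 0.067) and without library X1 (-0.59, edgeR FDR 0.05), and Eip78C, which passed it without library X2 (-0.49, edgeR FDR 0.0246) and without library X5 (-0.50, edgeR FDR 0.0431). Eip78C was smaller without library X3 (-0.17, edgeR FDR 0.528) and without library X4 (-0.22, edgeR FDR 0.408). The cause was not tested. The number of members called was 6 to 8 over all settings, and all genes called were 3212 (DESeq2) to 4347 (RLE size factors). With at least 5 CPM in 3 libraries, Eip93F was not tested. Without a filter, Hr46 did not pass the test. The 60 member peaks became 91 when counted by gene body and 92 with 1 kb upstream, since peaks annotated to other genes inside the bodies then count. In whole peaks, which are longer than the central windows, matches were found in 6 peaks for the extended core site, 1 for the ecdysone response element, 11 for the forkhead site and 5 for the E-box, which turned its order against all merged peaks (8.3% against 12.8%). No paired analysis was possible because the columns of the count table carry no replicate number. The lowest counts were those of Hr46 (1 to 8 per library), Eip93F (17 to 46) and Eip78C (37 to 86).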

Other observations

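Markers of other tissues were used to check the cells. Among all tested genes, 27.0% were called higher and 23.1% lower after insulin. Of 10 neuron and muscle markers, 4 were tested and 1 was higher after insulin (elav, a neuronal RNA-binding protein, 62.6 ± 2.13 CPM after insulin and 56.0 ± 3.13 CPM after vehicle, SD, n = 3 each, edgeR FDR 0.0202). The summed level was 69.1 to 70.8 CPM after insulin and 60.1 to 68.9 CPM after vehicle, most of it from elav. The other tested markers, brp, para and Mlc2, had means of 0.917 to 1.92 CPM after insulin and 1.57 to 2.62 CPM after vehicle. Of 12 germline, salivary gland and fat body markers, 2 were tested and 1 was lower (aub, a piRNA pathway protein, 121 ± 3.60 CPM after insulin and 132 ± 2.58 CPM after vehicle, edgeR FDR 0.0175). The other tested marker, Sgs1, had a mean of 1.73 CPM after insulin and 1.66 CPM after vehicle. Among the plasmatocyte markers, the scavenger receptor gene crq (log2 fold change -0.62, edgeR FDR 1.29e-18), the engulfment receptor gene drpr (log2 fold change -0.90, edgeR FDR 3.42e-18) and the hemolectin gene Hml (log2 fold change -0.55, edgeR FDR 5.97e-07) were lower after insulin, and the receptor tyrosine kinase gene Pvr was higher (log2 fold change 0.20, edgeR FDR 7.94e-08).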
